A study of Mus musculus with 16 samples.

Results

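The genes described here are 4 chains of the interferon receptors and 6 interferon regulatory factors, 10 of the 24411 genes of the count table. They were chosen by name: Ifnar1 and Ifnar2, which form the receptor for type I interferons, Ifngr1 and Ifngr2, which form the receptor for interferon gamma, and the transcription factors Irf1, Irf2, Irf3, Irf5, Irf7 and Irf9. RNA was measured in 16 libraries from 8 bone marrow chimeras, C57BL/6 mice with CD45.2 that were 6 weeks old when they received 950 cGy of total body irradiation and then wild-type bone marrow with CD45.1. From the brain of each mouse, Ly6C/G-negative, CD11b+ cells were sorted as engrafted macrophages (low CD45.1) and as host microglia (low CD45.2). Each mouse thus gave 1 library of either kind. Mice 1 to 4 had received lipopolysaccharide (LPS, a bacterial endotoxin, 2.5 mg/kg into the peritoneum) 12 h earlier. Mice 5 to 8 were unchallenged controls without LPS, which makes 4 groups of 4 libraries. All host microglia had been irradiated and no engrafted cell had, so irradiation and origin cannot be told apart between the populations. The paper does not state whether control mice received an injection without LPS, so effects of LPS and of the injection itself cannot be told apart. Brain macrophages for RNA were taken 9 months after transplantation, a time that the labels list beside 3.5 months without tying either to a library.

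Interferons act in an ordered chain. A cell that senses microbial products through Toll-like or cytosolic receptors activates Irf3, Irf5 and Irf7, which enter the nucleus and switch on interferon genes and other cytokines. Secreted type I interferon binds Ifnar1 and Ifnar2, whose attached kinases are Tyk2 and Jak1. Downstream, Stat2 and Irf9, the DNA-binding subunit, are parts of the complex ISGF3, which drives antiviral genes and also Irf7, a feed-forward step. Interferon gamma binds Ifngr1, the ligand-binding chain, together with Ifngr2, the signalling chain, and induces genes such as Irf1. Irf2 occupies many of the sites of Irf1 and can oppose it. Microglia respond to interferons of both types, and LPS is a classical inducer of interferon beta through Tlr4 and Irf3.

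Promoter sequence of the genes was taken from RefSeq (GRCm38.p6), 250 bases before to 50 bases after each start site. All 10 genes matched, with 12 start sites. Each window was searched on both strands for the core of the interferon-stimulated response element (GAAANNGAAA, the letters bound by ISGF3 and IRFs), for the interferon gamma activated site (TTCNNNGAA) and for the kappaB consensus. The first was held by 1 of the 10 genes (3.44% of the 32851 RefSeq promoters of this length), the second by 4 genes (8.30% of promoters) and the third by 3 genes (4.51% of promoters). The stretches that follow show 1 or 2 matches of each kind, in the receptor gene Ifnar1 and the factors Irf1 and Irf2. The match is in capitals, with 20 bases, or what the window leaves, on either side. In order, they lie on the forward strand at chr16:91485190-91485238, chr11:53769904-53769952, chr11:53769981-53770030 and chr8:46739495-46739533. Relative to the start site the matches span bases -5 to 4, -90 to -82, -13 to -4 and -241 to -232.
Ifnar1, interferon gamma activated site: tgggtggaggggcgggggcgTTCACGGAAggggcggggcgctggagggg
Irf1, interferon gamma activated site: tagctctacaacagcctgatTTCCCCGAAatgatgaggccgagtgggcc
Irf1, kappaB: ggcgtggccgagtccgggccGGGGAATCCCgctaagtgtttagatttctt
Irf2, response element core: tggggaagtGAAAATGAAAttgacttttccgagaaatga

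Irf7, whose RNA changed most, held none of these letters in its window, and neither did Irf3, Irf5, Irf9 and Ifngr1. The Irf7 window lies on the reverse strand at chr7:141266375-141266674 and is printed 5′ to 3′ with no capitals because it has no match.
Irf7, promoter: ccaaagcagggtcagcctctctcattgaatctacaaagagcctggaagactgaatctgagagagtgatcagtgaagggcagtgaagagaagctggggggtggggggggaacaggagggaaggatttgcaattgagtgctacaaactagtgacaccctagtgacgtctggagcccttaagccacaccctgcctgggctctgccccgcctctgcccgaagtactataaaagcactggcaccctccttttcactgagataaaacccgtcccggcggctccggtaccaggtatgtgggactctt
A match in such a window is a description of letters, and its absence says nothing about a factor.

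The number of reads on genes ran from 395283 to 1203597 (median 820587.5), and the lowest number belonged to the engrafted cells of LPS mouse 4. Values below are CPM, read counts brought to a common library size with TMM, a correction for differences in RNA composition, and limits drawn from small counts cover counting error only. Markers separated the populations. Tmem119, P2ry12, Sall1 and Siglech, which mark microglia, summed to 5745 to 7391 CPM in host and 2033 to 2586 CPM in engrafted cells without LPS (1700 to 2141 and 1021 to 1349 CPM after LPS), and Apoe, Ms4a7, Mrc1 and Clec12a to at most 7385 CPM in any host and at least 44183 CPM in any engrafted library. Both libraries of mice 4 and 8 stood apart by hemoglobin and Alas2 reads (506 to 4474 CPM against 1.56 to 115 CPM in the other 12), and calls or signs that change without these mice are given both ways. The 6 monocyte markers summed to 199 to 334 CPM in engrafted cells without LPS, to 1129 to 2104 CPM after LPS and to at most 25.2 CPM in host libraries. The 7 neutrophil markers reached 48.2 to 1269 CPM in engrafted and at most 14.7 CPM in host libraries, and the 5 astrocyte markers 11.7 to 39.8 CPM in engrafted and 149.5 to 301 CPM in host libraries. The lists for neurons, oligodendrocytes, B cells, endothelial cells and T and NK cells stayed at or under 245, 219.8, 79.7, 41.6 and 23.3 CPM. The 6 general brain macrophage markers summed to 12689.9 to 13498 CPM in engrafted and 13005 to 14709 CPM in host cells without LPS, and to 5129 to 6004 CPM and 8031 to 9295 CPM after it, so they were lower in every library after LPS. The part of these other cells in the results below was not tested.

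All 10 genes passed the filter on low counts in every comparison. Without LPS, 3 of the 10 were higher in engrafted cells (Ifnar1, Irf7 and Irf1), where 13.6% of the 8042 genes tested were, and 2 were lower (Ifngr1 and Irf5), where 13.7% were. After LPS, 1 was higher (Irf7, background 9.52% of 7843 genes) and 1 lower (Ifngr1, background 7.62%). When the mouse was a block in that fit, Irf1 was higher too (adjusted p = 0.0350 by edgeR). With LPS, engrafted cells gained Irf7 and Irf9 (2 of 10, background 19.4% of 7609 genes) and lost Ifnar1 and Ifngr2 (2 of 10, background 19.3%), and host microglia gained Irf7, Irf9 and Ifngr1 (3 of 10, background 19.2% of 8238 genes) and lost Irf5 (1 of 10, background 20.5%). The LPS response differed between the populations for Irf7 and Irf5, higher in engrafted cells (2 of 10, background 2.97% of 8847 genes), and for Ifnar1, lower in engrafted cells (1 of 10, background 2.9%). The other calls are those of edgeR's quasi-likelihood test without a term for the mouse, at a Benjamini-Hochberg adjusted p below 0.05 over all genes tested. Comparisons that use the same control or LPS libraries are not independent of each other.

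The values of the 4 libraries did not overlap between the groups for 5 of the 10 genes without LPS (background 26.4% of genes tested), for 4 after LPS (20.7%), for 4 between LPS and control in engrafted cells (35.1%) and for 4 in host microglia (35.7%). The median log2 fold change of the 10 genes was 0.24 without LPS against 0.02 for all genes tested, 0.43 against -0.01 after LPS, 0.30 against -0.01 with LPS in engrafted cells, and 0.05 against 0.01 with LPS in host microglia.

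**Figure D1:**
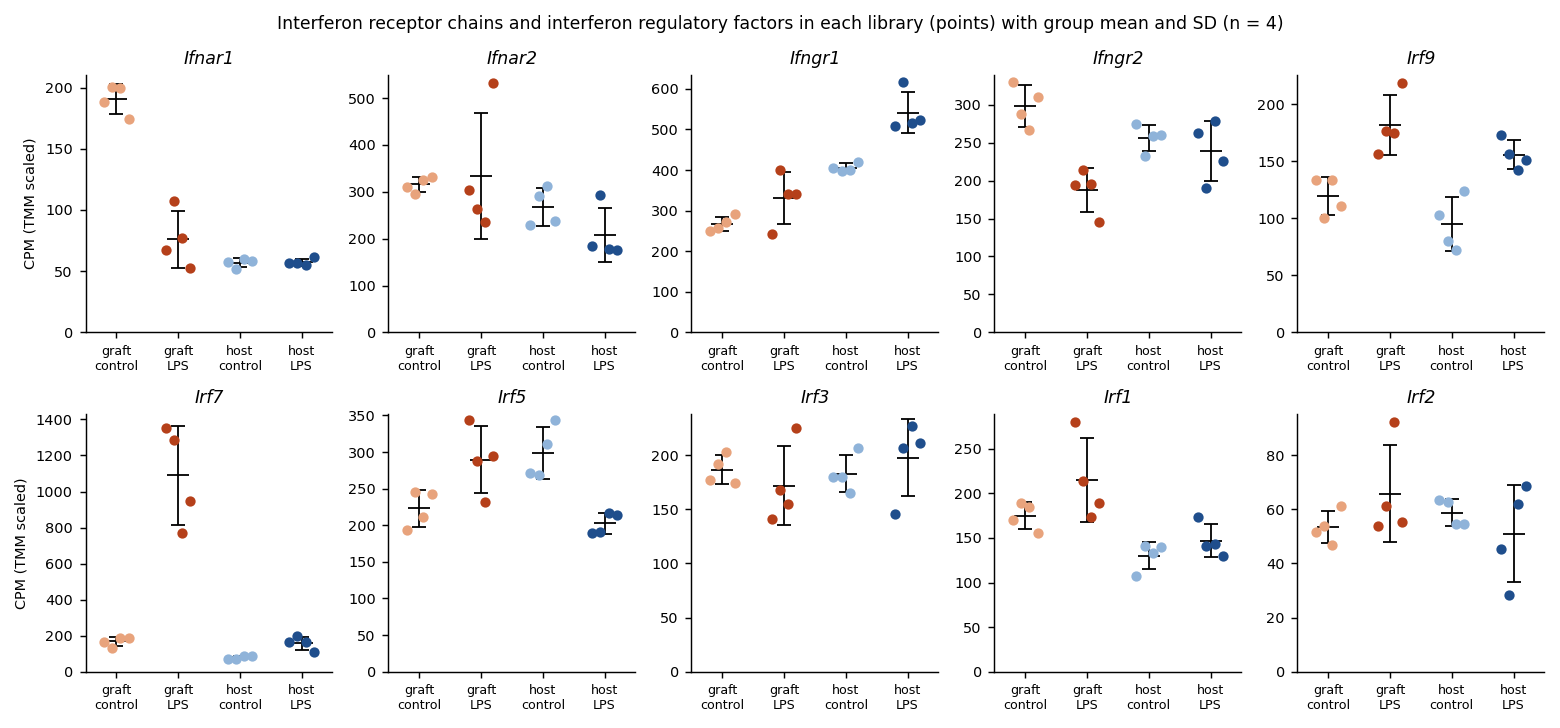
CPM (y axis, from 0, a separate scale for each gene) of the 4 receptor chains and 6 regulatory factors in graft and host libraries without and with LPS (x axis). Points are libraries, bars the mean and SD of 4. Irf7 in graft cells after LPS, at 770.1 to 1353 CPM, and Ifnar1 in graft cells without LPS, at 174 to 201 CPM, stand clear of the other 3 groups.

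**Figure D2:**
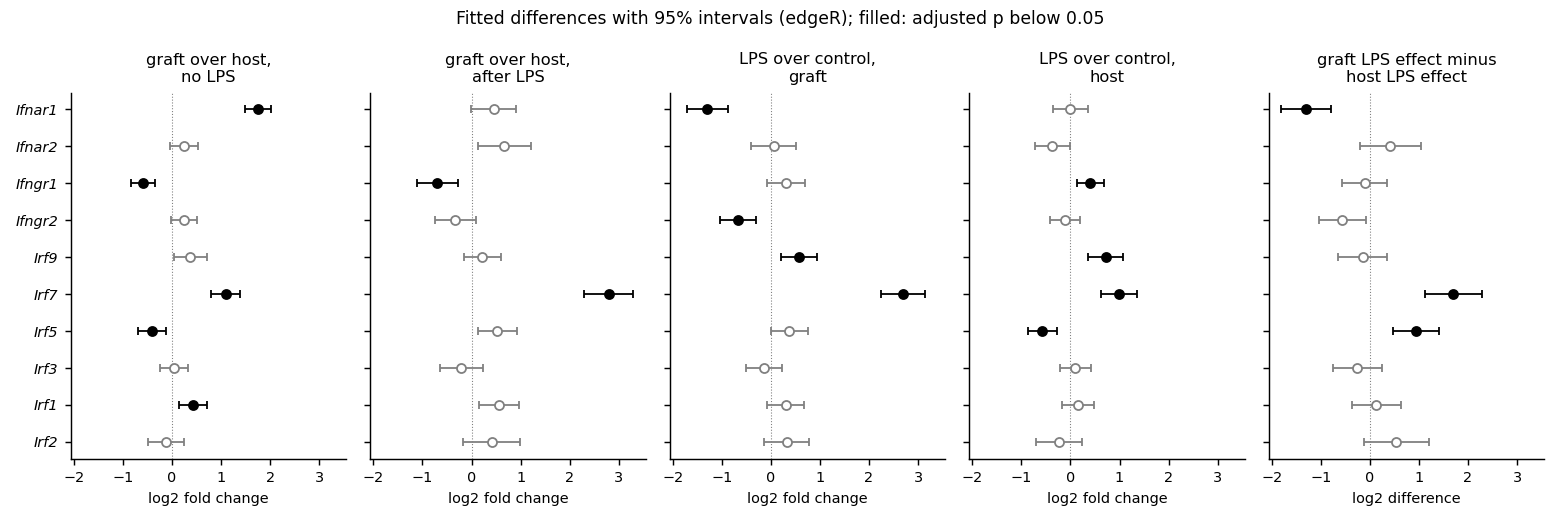
Fitted log2 differences (x axis) with 95% confidence intervals for each gene (rows) in the 4 comparisons and in the difference between the LPS responses (last panel), by edgeR. Filled points passed an adjusted p below 0.05, which 3 of 10 genes did in the last panel: Irf7 at 1.70, Irf5 at 0.94 and Ifnar1 at -1.30. The background of that panel was 2.97% higher and 2.9% lower of all genes tested.

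The chain Ifnar1 was the receptor gene that differed most between the populations, and it did so in mice that had not received LPS. Without LPS, engrafted cells of mice 5, 6, 7 and 8 held 189, 201, 199 and 174 CPM of Ifnar1 RNA, and host microglia of the same mice 57.5, 52.0, 60.0 and 58.5 CPM. Every engrafted library lay above every host library, with a mean of 191 ± 12.3 CPM (SD, n = 4) against 57.0 ± 3.51 CPM, a 3.35-fold difference (log2 1.75, SE 0.13, adjusted p = 9.81e-11 by edgeR's quasi-likelihood test). After LPS, engrafted cells of mice 1, 2, 3 and 4 held 67.1, 107, 76.8 and 52.5 CPM and host microglia 56.6, 56.7, 54.7 and 61.5 CPM. All 4 engrafted values had dropped below those without LPS, down to the host range in mouse 4, whose engrafted library had 18 Ifnar1 reads, while host values overlapped those without LPS.

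The fall of Ifnar1 in engrafted cells was 2.51-fold (log2 -1.30, SE 0.20, adjusted p = 2.91e-05 by edgeR's quasi-likelihood test), and the host mean was 57.4 ± 2.91 CPM after LPS (log2 0.00, 95% interval -0.36 to 0.36). The responses differed by -1.30 on the log2 scale (SE 0.25, adjusted p = 0.00129 by the same test's interaction term), and by -1.18 without mice 4 and 8 (adjusted p = 0.00926 by edgeR). Between the populations after LPS, the difference of log2 0.45 (95% interval -0.01 to 0.90) had an adjusted p of 0.183 by edgeR. In order of mean level, engrafted cells without LPS were highest, and the libraries of the other 3 groups, with means of 75.9, 57.4 and 57.0 CPM, overlapped each other. In bulk libraries, fewer cells that carry an RNA and less of it per cell cannot be told apart.

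The partner chain Ifnar2, which binds type I interferon most tightly, did not pass the test in any comparison. It ranged from 296 to 332 CPM in engrafted and 230.1 to 312 CPM in host cells without LPS, and the groups overlapped. After LPS, engrafted cells of mice 1, 2, 3 and 4 held 304, 263, 235 and 531 CPM and host microglia 185, 294, 179 and 175 CPM. The engrafted library of mouse 4 and the host library of mouse 2 lay above the rest of their groups.

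With LPS the log2 change of Ifnar2 was 0.05 (SE 0.22) in engrafted cells, and -0.21 without mice 4 and 8. The sign in engrafted cells rested on the library of mouse 4, without which alone it was -0.22. In host microglia it was -0.37 (SE 0.17, adjusted p = 0.0930 by edgeR), and without the host LPS library of mouse 2 it was -0.58 and passed (adjusted p = 0.00342 by edgeR). Between the populations after LPS, the difference of 0.67 (adjusted p = 0.0921 by edgeR) was 0.88 without that library (adjusted p = 0.0288) and 0.30 without mice 4 and 8 (adjusted p = 0.387). It passed in 3 of 15 alternatives, the other two being no filter (adjusted p = 0.0306) and 1 fit of all 16 libraries (adjusted p = 0.0291). The authors counted Ifnar2 on the short model NM_001110498 (mm9 chromosome 16, 91373028 to 91394288, forward strand, 1160 exonic bases). Of 7 coding transcripts of the gene in GENCODE M1 on the same build, 6 end further downstream, by up to 25408 bases, and since these libraries read the 3′ end, reads on exons outside the short model were not counted.

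The receptor for interferon gamma showed the opposite order of populations in its ligand-binding chain. Without LPS, Ifngr1 stood at 250.4, 256, 272 and 291 CPM in engrafted cells of mice 5 to 8 and at 406, 396, 400.4 and 421 CPM in host microglia. After LPS, the engrafted cells of mice 1 to 4 held 243, 399.8, 340.3 and 341 CPM and host microglia 509, 617, 515 and 523 CPM. All host libraries were above all engrafted libraries under both conditions, and host libraries after LPS were the highest of all.

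Ifngr1 was 1.52-fold higher in host microglia without LPS (log2 -0.59 engrafted over host, SE 0.12, adjusted p = 0.000545 by edgeR's quasi-likelihood test) and 1.63-fold higher after LPS (log2 -0.70, SE 0.20, adjusted p = 0.0195). Without the engrafted LPS library of mouse 1, the second difference was -0.57 and missed the threshold (adjusted p = 0.0873 by edgeR). LPS raised Ifngr1 in host microglia 1.33-fold, from 406 ± 10.7 to 541 ± 50.6 CPM (SD, n = 4; log2 0.40, SE 0.14, adjusted p = 0.0208 by edgeR). That call was lost without the control library of host mouse 6 (log2 0.39, adjusted p = 0.0669 by edgeR) or of host mouse 7 (0.39, adjusted p = 0.0570). In engrafted cells the estimate was 0.30 (95% interval -0.08 to 0.69), and the difference between the responses was -0.11 (95% interval -0.57 to 0.35).

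Ifngr2, the signalling chain of the same receptor, fell with LPS in engrafted cells. Without LPS, engrafted cells of mice 5 to 8 held 330.5, 287, 267 and 309.5 CPM of Ifngr2 RNA, and after LPS those of mice 1 to 4 held 194, 214, 196 and 146 CPM. All 4 values after LPS lay under the lowest without it (log2 -0.66, SE 0.18, adjusted p = 0.00544 by edgeR's quasi-likelihood test). Host microglia held 274, 233, 259 and 259 CPM without and 263, 191, 278 and 225 CPM after LPS, and these overlapped (log2 -0.11, 95% interval -0.42 to 0.20). The difference between the responses, -0.56 (95% interval -1.04 to -0.09), had an adjusted p of 0.165 by edgeR, so a fall particular to engrafted cells was not shown. Ifngr2 reads can also lie past the counted model, since its coding transcript in GENCODE M1 ends 1162 bases further downstream. For Irf5, Irf1 and Irf7, 1 coding transcript each ends further downstream, by 4549, 1050 and 477 bases. For these genes 2, 2 and 3 other coding transcripts end within 50 bases of the counted model.

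Of the 4 receptor chains, 3 are neighbours on the same strand of mouse chromosome 16. In mm9, Ifnar2, Il10rb, Ifnar1 (91485460 to 91510767) and Ifngr2 (91547339 to 91564252) lie within 191.2 kb. Il10rb, the chain shared by the receptors for interleukin 10 and interferon lambda, was higher in engrafted cells without LPS (log2 0.64, SE 0.13, adjusted p = 0.000681 by edgeR) and fell with LPS in both populations, by 0.98 on the log2 scale in engrafted cells and by 0.68 in host microglia. Of these 4 genes, 3 were lower with LPS in engrafted cells (background 19.3% of all genes tested) and 1, Il10rb, in host microglia (background 20.5%), and neighbouring genes beyond these were not examined.

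Irf7, the factor that amplifies type I interferon production, had the widest range of the 10 genes. Without LPS it stood at 167, 132, 186 and 187 CPM in engrafted cells of mice 5 to 8 and at 72.3, 70.2, 85.7 and 87.8 CPM in host microglia. After LPS, engrafted cells of mice 1 to 4 held 1353, 1286, 770.1 and 949 CPM and host microglia 164, 195, 163 and 109 CPM. No group overlapped another except that host libraries after LPS covered the engrafted range without LPS.

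The difference between the populations was 2.13-fold without LPS (log2 1.09, SE 0.14, adjusted p = 1.28e-06 by edgeR's quasi-likelihood test) and 6.90-fold after LPS (log2 2.79, SE 0.24, adjusted p = 1.4e-07). LPS raised Irf7 6.48-fold in engrafted cells, to 1089 ± 277 CPM (SD, n = 4; log2 2.69, SE 0.22, adjusted p = 7.94e-09 by edgeR), and 2.00-fold in host microglia, to 158 ± 35.9 CPM (log2 0.99, SE 0.18, adjusted p = 0.00013). The responses differed by 1.70 on the log2 scale (SE 0.28, adjusted p = 0.000314 by edgeR). The order of the groups was engrafted after LPS, then engrafted without LPS (168 ± 25.9 CPM) and host after LPS, whose libraries overlapped, then host without LPS (79.0 ± 9.03 CPM).

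The sum of the monocyte markers, like Irf7, was higher after LPS in engrafted cells. They summed to 2104, 1538, 1586 and 1129 CPM in LPS mice 1, 2, 3 and 4 and to 199, 312, 279.9 and 334 CPM in control mice 5, 6, 7 and 8. Of the 6 markers, Ly6c2 (429 to 860 CPM after LPS, 22.2 to 40.2 CPM without), Plac8, Chil3, F13a1 and Vcan were higher after LPS in all libraries, while Ccr2 was lower (31.3 to 61.4 CPM against 85.1 to 234 CPM). Their part in the Irf7 values was not tested. Markers of plasmacytoid dendritic cells, which carry much Irf7, summed to 18.7 to 22.9 CPM in engrafted cells after LPS and 50.3 to 86.2 CPM without. In host microglia they summed to 27.4 to 58.7 CPM after LPS and 31.3 to 106 CPM without. Of the 7, Ly6d and Klk1 had no read in the 4 engrafted LPS libraries, and at most 6 and 17 reads in an engrafted library without LPS. The part of these cells was not tested either. Without mice 4 and 8 the response of Irf7 was 2.81 in engrafted cells and 1.18 in host microglia on the log2 scale.

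Irf9, the DNA-binding part of ISGF3, rose with LPS in both populations. It stood at 134, 100.4, 134 and 111 CPM in engrafted cells and 103, 79.9, 72.5 and 124 CPM in host microglia of control mice 5 to 8. After LPS the engrafted cells of mice 1 to 4 held 156, 177, 175 and 219 CPM and the host microglia 173, 156, 143 and 151 CPM. In each population all libraries after LPS lay above all libraries without, and the populations overlapped under both conditions.

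The log2 change of Irf9 with LPS was 0.57 in engrafted cells (SE 0.18, adjusted p = 0.0152 by edgeR's quasi-likelihood test) and 0.72 in host microglia (SE 0.18, adjusted p = 0.00239), with a difference of -0.15 (95% interval -0.66 to 0.35). Without the engrafted control library of mouse 6, the change in engrafted cells was 0.51 and missed the threshold (adjusted p = 0.0553 by edgeR). Between the populations without LPS the difference was 0.38 (adjusted p = 0.0966 by edgeR), and 0.54 without the host control library of mouse 8 (adjusted p = 0.0148) or 0.58 without all libraries of mice 4 and 8 (adjusted p = 0.0176).

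Irf5, which acts below Toll-like receptors on inflammatory cytokine genes, fell with LPS in host microglia, and its response differed between the populations. Without LPS, engrafted cells of mice 5 to 8 held 194, 246, 211 and 243 CPM and host microglia 271, 268, 312 and 343 CPM. After LPS, engrafted cells of mice 1 to 4 held 344, 288, 232 and 295 CPM and host microglia 189, 191, 217 and 214 CPM. Every host library was above every engrafted library without LPS and below every engrafted library after it.

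LPS lowered Irf5 in host microglia 1.47-fold, from 299 ± 35.6 to 203 ± 14.8 CPM (SD, n = 4; log2 -0.57, SE 0.14, adjusted p = 0.0027 by edgeR's quasi-likelihood test). In engrafted cells the estimate was 0.37 (SE 0.18, adjusted p = 0.106 by edgeR). The responses differed by 0.94 (SE 0.23, adjusted p = 0.0126 by edgeR). Between the populations, Irf5 was lower in engrafted cells without LPS (log2 -0.41, SE 0.14, adjusted p = 0.0252 by edgeR), a call lost when all 16 libraries shared 1 fit (adjusted p = 0.0650) and without the engrafted control library of mouse 5 (-0.34, adjusted p = 0.0758) or 7 (-0.39, adjusted p = 0.0711) or the host control library of mouse 7 (-0.39, adjusted p = 0.0671) or 8 (-0.35, adjusted p = 0.0592). After LPS the difference of 0.53 had an adjusted p of 0.0644 by edgeR. It passed with all libraries by DESeq2 (0.54, adjusted p = 0.0253) and in 1 fit of all 16 libraries (0.52, adjusted p = 0.0215), and also without the engrafted LPS library of mouse 3 (0.64, adjusted p = 0.0377 by edgeR) or of mouse 4 (0.54, adjusted p = 0.0378), and over 15 alternatives the adjusted p ranged from 0.0215 to 0.197.

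Irf1, an early target of interferon gamma, was higher in engrafted cells without LPS and passed the test of LPS in neither population. It stood at 170.3, 189, 184 and 156 CPM in engrafted cells and 108, 140.5, 133 and 139 CPM in host microglia of mice 5 to 8, and at 281, 214, 174 and 189.7 CPM and 173, 141, 143 and 130.1 CPM in mice 1 to 4. Engrafted libraries lay above host libraries under both conditions, by the least in the LPS group, where 174 CPM in mouse 3 was next to 173 CPM in mouse 1.

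The difference of Irf1 was 1.34-fold without LPS (log2 0.43, SE 0.14, adjusted p = 0.0200 by edgeR's quasi-likelihood test). It missed the threshold without the engrafted control library of mouse 6 (0.39, adjusted p = 0.0628 by edgeR) or 7 (0.40, adjusted p = 0.0578) and without the host control library of mouse 5 (0.35, adjusted p = 0.0851), and with all libraries under library totals (adjusted p = 0.0649), no filter (adjusted p = 0.0846) and 1 fit of all 16 libraries (adjusted p = 0.0794). It passed in 9 of 15 alternatives, and over them the adjusted p ranged from 0.0140 to 0.0851. After LPS the difference was 0.56 (SE 0.20, adjusted p = 0.0561 by edgeR). With the mouse as a block in the paired fit it was 0.55 and passed (adjusted p = 0.0350 by edgeR), as it did by DESeq2 (adjusted p = 0.0386), in 1 fit of all 16 libraries (adjusted p = 0.0174) and without the engrafted LPS library of mouse 3 (0.67, adjusted p = 0.0354) or 4 (0.63, adjusted p = 0.0232), with a range of 0.0174 to 0.221 over 15 alternatives. LPS gave 0.30 (95% interval -0.08 to 0.68) in engrafted cells and 0.16 (95% interval -0.16 to 0.48) in host microglia.

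Irf2 and Irf3 passed the test in no comparison, and their groups overlapped in all 4. Irf3, the factor that LPS activates through phosphorylation rather than through its RNA, ranged from 174 to 203 CPM in engrafted and 165 to 207 CPM in host cells without LPS, and from 141 to 225 CPM and 146 to 227 CPM after LPS. The difference without LPS was 0.04 on the log2 scale (95% interval -0.24 to 0.32). Irf2 ranged from 46.9 to 61.2 CPM and 54.5 to 63.4 CPM without LPS, and from 53.9 to 92.1 CPM and 28.3 to 68.5 CPM after LPS, with as few as 19 reads in a library. Its widest interval, that of the difference between the responses, was -0.13 to 1.20, which spans both no difference and a more than 2-fold one.

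Because both populations came from the same brain, the ratio of engrafted to host RNA could be formed within each mouse, as log2 of CPM + 1. For Irf7 it was 1.20, 0.90, 1.11 and 1.08 in control mice 5 to 8 and 3.04, 2.71, 2.23 and 3.11 in LPS mice 1 to 4. For Ifnar1 it was 1.70, 1.93, 1.72 and 1.56 in control mice and 0.24, 0.91, 0.48 and -0.22 in LPS mice. For Irf5 it was -0.49, -0.13, -0.56 and -0.50 in control mice and 0.86, 0.59, 0.10 and 0.46 in LPS mice. For these 3 genes the ratios of control and LPS mice did not overlap. The share of all genes with such a separation was not determined, so this count stands without a background. The Irf5 ratio was below 0 in all control mice and above 0 in all LPS mice.

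The mean ratios differed between LPS and control mice by 1.70 for Irf7, -1.37 for Ifnar1 and 0.92 for Irf5. Each had p = 0.029 by a two-sided exact permutation test, the smallest p that 4 mice against 4 can give. Any gene whose ratios do not overlap has that p, so it adds nothing to the separation above. The p stands unadjusted, and 10 genes were compared. For Ifngr2 the difference was -0.57 (exact permutation p = 0.057), and for the other 6 genes p lay between 0.20 and 0.60. Over the 22 alternatives to the interaction fit, the difference between the responses stayed between 1.58 and 1.85 for Irf7, between 0.84 and 1.05 for Irf5 and between -1.49 and -1.18 for Ifnar1, and all passed the threshold.

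**Figure D3:**
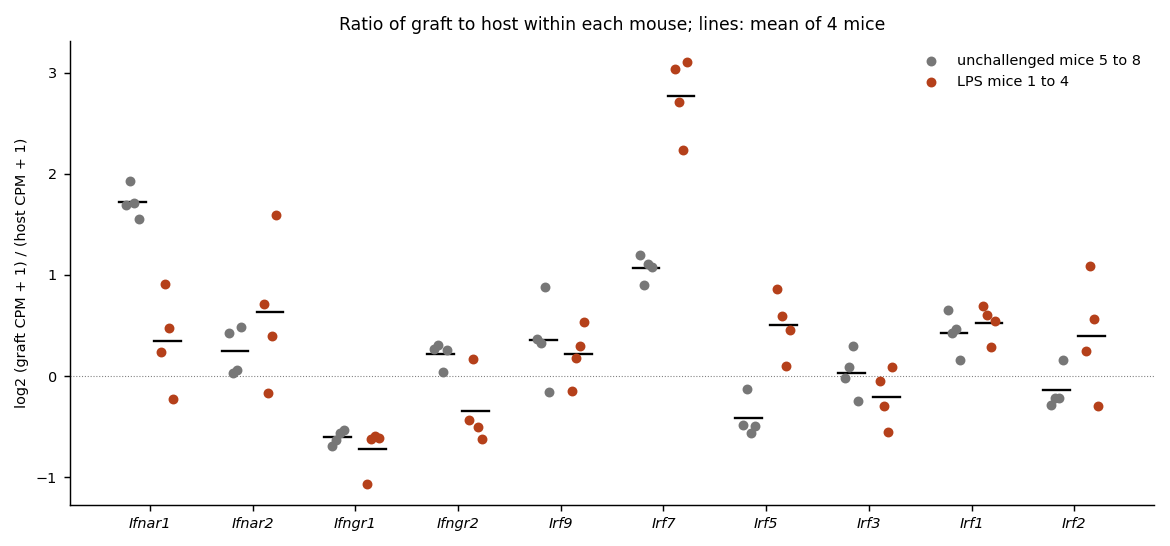
Log2 ratio of graft to host CPM + 1 within each mouse (y axis) for the 10 genes (x axis), grey for the 4 unchallenged and red for the 4 LPS mice, with lines at the means. The mean ratio of LPS mice minus that of control mice was -1.37 for Ifnar1, 1.70 for Irf7 and 0.92 for Irf5.

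Genes whose levels followed those of the 4 widest-ranging members were looked for by Pearson's r of log2 CPM + 1 over the 16 libraries, among 6787 other genes of at least 20 CPM on average. The libraries fall into 4 groups, so such an r mostly reads group means, and it is given with no p. For Irf7 the closest were Cd44, an adhesion receptor for hyaluronan (r = 0.975), Cfb, the complement factor B (0.975), and Slpi, a secreted protease inhibitor (0.965). Cfb stood at 362 to 727 CPM in engrafted cells after LPS and at most 13.4 CPM in any library of the other 3 groups. For Ifnar1 they were Xylt2 (0.948), Myo9b (0.935) and Cmah (0.931), the last with 96.4 to 126 CPM in engrafted cells without LPS and at most 1.19 CPM elsewhere. For Ifngr1 they were Ctsl, a lysosomal protease (0.943), Hcar2 (0.909) and Cd101 (0.907), and for Irf9 Anp32b (0.901), Ddx54 (0.898) and Mcemp1 (0.889).

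The ligands of these receptors were nearly absent. Of 21 interferon genes in the table, 19 had no read in any of the 16 libraries, and none passed the filter on low counts. Ifnb1, the gene of interferon beta, had 0 reads in the 4 engrafted libraries without LPS, 0 to 1 after LPS, 0 to 6 in host libraries without and 0 to 3 in those after LPS. Ifng had at most 3 reads in a library. Such a gene could hold up to 3 reads per library unseen, and 12 h after LPS is the only time measured.

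The relay behind the receptors moved in parts. Of the 4 genes described, Stat2 was higher in engrafted cells without LPS (log2 0.96, SE 0.18) and Jak1, a kinase of both receptors, was lower (-0.37, SE 0.14). After LPS Stat2 was higher (0.89, SE 0.20) and Jak1 lower (-0.62, SE 0.19) in engrafted cells. With LPS, Stat2, the partner of Irf9 in ISGF3, rose by 1.08 (SE 0.20) in engrafted cells and by 1.14 (SE 0.19) in host microglia. Jak1 rose in host microglia (0.41, SE 0.14). None of the 4 passed the test of a difference between the responses (background 2.97% higher and 2.9% lower of all genes tested).

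Of 8 brakes on interferon signalling, Socs3, an inhibitor of Janus kinases, moved most. It was lower in engrafted cells without LPS (log2 -1.90, SE 0.15) and rose with LPS by 3.52 (SE 0.24) there and by 1.41 (SE 0.19) in host microglia, with a difference between the responses of 2.10 (SE 0.32, adjusted p = 9.41e-05 by edgeR). Usp18, which blocks the type I receptor at Ifnar2, was higher in engrafted cells without LPS (0.80, SE 0.24, 1 of 8 in that direction), with log2 estimates of -0.19 and 0.06 for LPS in engrafted and host cells (adjusted p = 0.552 and 0.887 by edgeR). The phosphatase gene Ptpn1 rose in both populations (1.63, SE 0.23, and 1.10, SE 0.15) and Ptpn11 in host microglia (1.27, SE 0.27). In all, 2 of the 8 rose and 0 fell with LPS in engrafted cells (background 19.4% and 19.3%), 3 rose and 2 fell in host microglia (19.2% and 20.5%), and between the populations 1 was higher and 1 lower without LPS (13.6% and 13.7%) and 0 of either after it (9.52% and 7.62%).

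Target genes of these pathways were taken from lists of 25 genes for type I interferon and 17 for interferon gamma. Of the type I targets tested, 11 of 22 were higher in engrafted cells and 0 lower without LPS (background 13.6% and 13.7% of all genes tested), and 15 of 23 higher and 1 lower (Eif2ak2) after it (9.52% and 7.62%). The other 11 without LPS and 7 after it did not pass. Their median log2 fold change was 0.70 without LPS, against 0.02 for all genes tested, and 1.24 after it, against -0.01. With LPS, 13 of 24 rose and 0 fell in engrafted cells (background 19.4% and 19.3%), and 10 of 21 rose and 1 fell (Ifit3) in host microglia (19.2% and 20.5%).

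Among type I targets, Bst2, which tethers budding virus, was at 1469 to 1911 CPM in engrafted and 382 to 536 CPM in host cells without LPS (log2 2.01, SE 0.13). Isg15, a ubiquitin-like protein, stood at 49.7 to 53.6 CPM in engrafted and 31.0 to 61.5 CPM in host cells without LPS, and at 307 to 499.7 CPM and 47.6 to 228 CPM after it. Zbp1, a sensor of Z-form nucleic acid, rose in both populations (log2 2.97, SE 0.25, in engrafted cells and 2.21, SE 0.25, in host microglia). The responses differed by 1.81 for Isg15 (SE 0.43), 1.91 for Isg20 (SE 0.46) and 1.83 for Oas3 (SE 0.46). These were the 3 of 25 that were higher in engrafted cells by this test, while Eif2ak2 was the 1 that was lower (-1.04, SE 0.25). Of all genes tested for such a difference, 2.97% were higher and 2.9% lower.

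Of the interferon gamma targets tested, 7 of 13 were higher and 1 lower in engrafted cells without LPS (background 13.6% and 13.7%), and 7 of 15 higher and 0 lower after it (9.52% and 7.62%), while 5 and 8 did not pass. Their median log2 fold change was 0.52 and 0.91, against 0.02 and -0.01 for all genes tested. With LPS, 11 of 17 rose and 3 fell in engrafted cells (background 19.4% and 19.3%), and 6 of 14 rose and 2 fell in host microglia (19.2% and 20.5%). Ciita, the regulator of MHC class II genes, had 17.2 to 72.7 CPM in engrafted cells without LPS and 1.20 to 4.40 CPM after it, with at most 1 read in any host library. Gbp2, a guanylate-binding protein, rose by 3.48 (SE 0.35) in engrafted cells and 2.01 (SE 0.31) in host microglia. Psmb8, a subunit of the immunoproteasome, was the 1 of 17 whose responses differed (0.78, SE 0.21, adjusted p = 0.0289 by edgeR). By that test 2.97% of all genes were higher in engrafted cells and 2.9% lower, so 1 of 17 is near the background. Some targets passed the low-count filter only through the group where they were high, which fixed their direction. With LPS in engrafted cells, examples were Gbp2 (4 to 11 reads without, 20 to 179 after) and Serpina3g (1 to 8 and 14 to 138). The filter was set for each comparison, so the number of genes tested differs. The genes of these lists were known from earlier results of the same data, so the counts describe them and test nothing further.

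**Figure D4:**
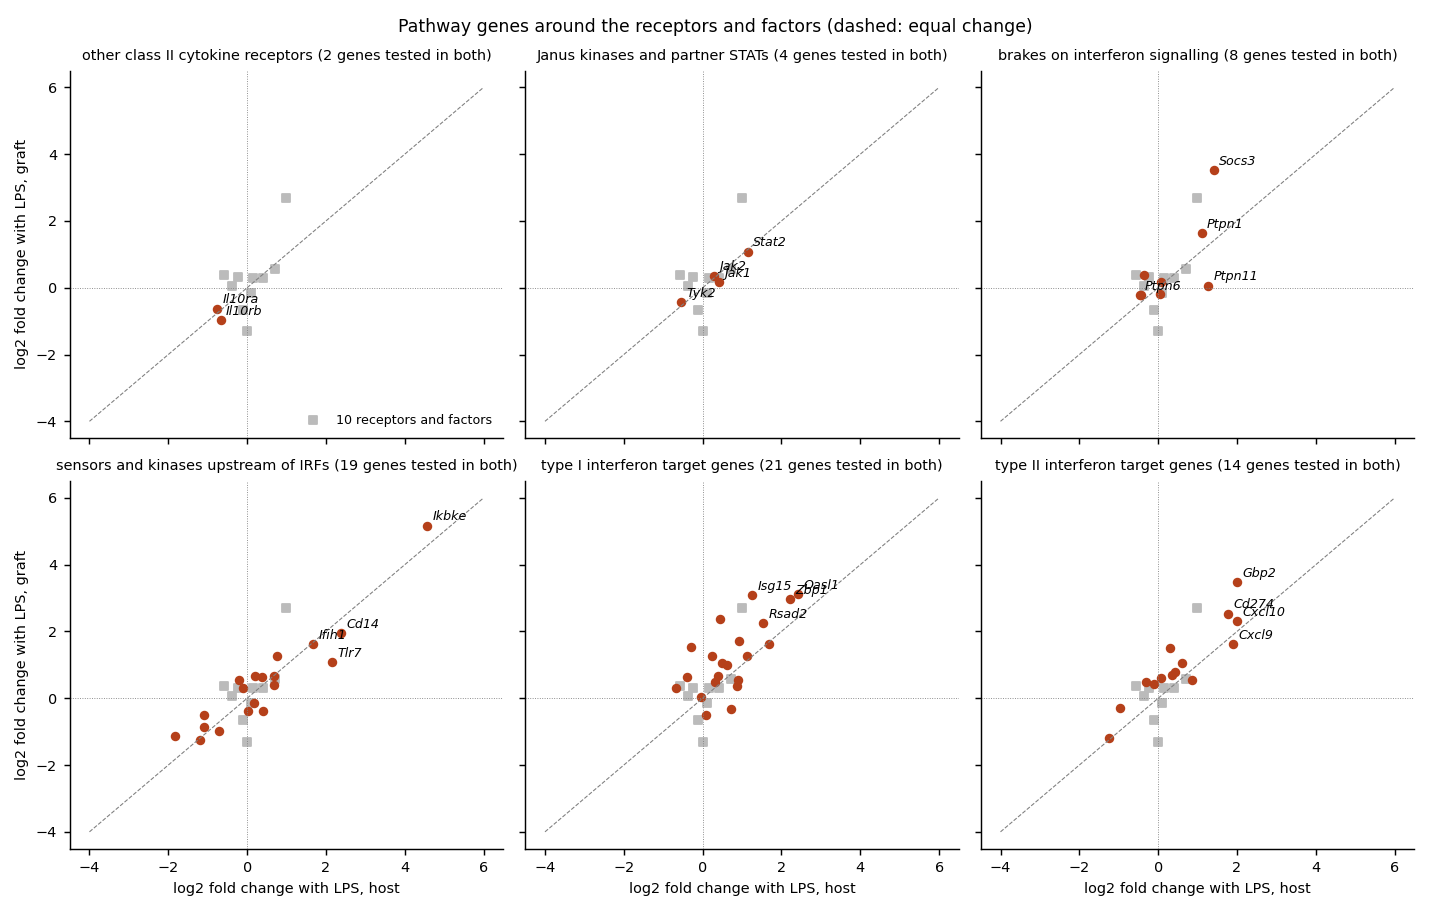
Log2 fold change with LPS in host microglia (x axis) and in graft cells (y axis) for genes of 6 lists (red points, 1 panel for each list) with the 10 receptors and factors in grey squares, where the dashed line marks equal change. Socs3 (3.52 in graft, 1.41 in host) lies above the line with the grey square of Irf7 (2.69 and 0.99), and Stat2 (1.08 and 1.14) lies near it.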

How the data were processed

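The authors made 3′ libraries by a derivation of MARS-seq, mapped the reads to mouse NCBI37 (mm9) with HISAT (0.1.5 per the submitters' processing notes), kept unique reads and counted them on the exons of 1 model per RefSeq gene with HOMER, sense reads only. What the authors deposited are raw counts, without normalization. No removal of duplicates is named, so p-values measure the spread between mice of libraries that may hold PCR copies. The 24 pairs of replicate libraries differed by 1.98 to 8.64 times counting noise (chi-square per degree of freedom), and none was a copy.

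All tests used edgeR 4.0.16 under R 4.3.3 (quasi-likelihood test, TMM, Benjamini-Hochberg adjustment, low-count filter at 10 and total 15, prior count 0.125), over all genes tested. The LPS effect within a population compares different mice, and the other comparisons share mice by design. Same-mouse residuals correlated at r = -0.03 to 0.19 in 8 mice (-0.06 to 0.01 with other mice). In LPS mice 1, 2, 3 and 4, r was 0.12, 0.01, 0.19 and 0.11. In control mice 5, 6, 7 and 8, it was 0.02, -0.03, 0.05 and 0.08. The block was run as an alternative, as were RLE factors, library totals, no filter, DESeq2 1.42.0, all 16 libraries in 1 fit, each library left out and, added after the data were seen, no mice 4 and 8. The tests were also run on simulated counts, of which no result is given here.

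The 10 genes and all lists were chosen with earlier results of these data known. Named are the 10 genes, from each list the 3 passing genes with the largest change per comparison or fewer, genes outside that rule where a count of 1 needed a name (Eif2ak2, Ifit3), and the 3 genes most like each of 4 members. Usp18 with LPS, Ifnb1, Ifng and single marker genes were also named after their values were seen. A gene of the signalling relay is not reported here.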

Additional observations from a re-analysis of the deposited data

Results flagged for a closer look

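The LPS response differed between engrafted cells and host microglia, by the interaction term of edgeR's quasi-likelihood test, for 3 of the 10 genes: by 1.70 on the log2 scale for Irf7, by 0.94 for Irf5 and by -1.30 for Ifnar1. Of all 8847 genes tested, 2.97% were higher and 2.9% lower in engrafted cells by this term. The within-mouse ratios of these 3 genes, which did not overlap between LPS and control mice, come from the same libraries and are no separate evidence.

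In 4 of 60 groups of 4 values a single mouse lay far from the other 3 (by Dixon's 95% criterion), where chance alone marks about 1 in 20. The host library of LPS mouse 2 held 294 CPM of Ifnar2, next to 185 CPM in the nearest library, and 617 CPM of Ifngr1, next to 523 CPM. The log2 ratio of engrafted to host Irf5 was -0.13 in control mouse 6, next to -0.49, and that of Ifngr1 was -1.06 in LPS mouse 1, next to -0.62.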

How the results depend on the processing

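Of 320 values of a gene in a comparison under alternatives that kept all libraries or left out mice 4 and 8, 300 kept direction and side of the threshold, 4 lost the threshold, 8 gained it and 8 changed sign. Of 480 with 1 library left out, 450 kept both, 11 lost it, 7 gained it and 12 changed sign. The cause of these shifts was not tested. After LPS, the number of genes higher in engrafted cells was 1, but 2 with no filter, 3 by DESeq2, 4 with all 16 libraries in 1 fit, 2 with the replicate block and 1 to 3 with a library left out, and the number lower was 0 to 1. Without LPS the number higher was 3, but 2 by library totals, with no filter and with all 16 libraries in 1 fit, 4 without mice 4 and 8 and 2 to 4 with a library left out. The number lower there was 1 with all 16 libraries in 1 fit and 1 to 2 with a library left out. With a library left out, the LPS counts were 1 to 2 higher in engrafted cells, and 2 to 3 higher and 1 to 2 lower in host microglia. The block changed the call of Irf1 after LPS and no other. No paired analysis was possible because different mice were compared for LPS within a population.

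Signs changed where the estimate was near 0. Irf3 without LPS was -0.041 by library totals, -0.016 with no filter and -0.0066 to 0.10 with a library left out. Ifnar2 with LPS in engrafted cells was -0.044 by library totals, -0.21 without mice 4 and 8 and -0.22 to 0.20 with a library left out. Ifnar1 with LPS in host microglia was 0.0075 by RLE, 0.020 with no filter, 0.0073 by DESeq2, 0.0023 in the fit of all 16 libraries and -0.054 to 0.026 with a library left out. With a library left out, the host LPS changes of Irf2 and Ifngr2 ran from -0.39 to 0.000245 and from -0.18 to 0.0061, and the differences between responses of Irf1 and Ifngr1 from -0.027 to 0.25 and from -0.20 to 0.019. Library totals moved the median of all genes after LPS by -0.15 and the share of calls that were higher from 55.5% to 40.2%. The fewest reads in a library were 18 for Ifnar1 and 19 for Irf2.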

Other observations

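Upstream of the factors, Ikbke, a kinase that activates Irf3 and Irf7, rose with LPS from 1.68 to 9.27 CPM to 123 to 265 CPM in engrafted cells and from 1.47 to 4.67 CPM to 26.6 to 132 CPM in host microglia, and was higher in engrafted cells after LPS (log2 1.39, SE 0.34, adjusted p = 0.00835 by edgeR). Tlr7, the endosomal receptor for single-stranded RNA whose signal activates Irf7, was the 1 of 20 sensors and kinases whose responses differed, in the direction opposite to Irf7 (-1.08, SE 0.27, adjusted p = 0.0167 by edgeR). It stood at 167 to 180.4 CPM in engrafted and 109 to 201 CPM in host cells without LPS, and at 236 to 435 CPM and 648 to 857 CPM after it. Tlr3, the receptor for double-stranded RNA, was lower in engrafted cells without LPS (log2 -1.73, SE 0.30) and after it (-1.14, SE 0.33). Of the 19 or 20 genes of this list tested, 3 were higher and 4 lower in engrafted cells without LPS (background 13.6% and 13.7% of all genes tested), 1 and 2 after it (9.52% and 7.62%), 6 rose and 4 fell with LPS in engrafted cells (19.4% and 19.3%), and 7 rose and 5 fell in host microglia (19.2% and 20.5%). In the difference of responses 0 of 20 were higher and 1 lower (2.97% and 2.9%), which is near the background. Without LPS, Ikbke had 1 to 5 reads in engrafted and 1 to 6 in host libraries. It passed the low-count filter through the LPS libraries alone, which fixed its direction with LPS.

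Among 5 cofactors and other IRF genes, Irf2bp1, a corepressor that binds Irf2, fell with LPS by 1.68 (SE 0.32) in engrafted cells and by 1.83 (SE 0.26) in host microglia on the log2 scale. Irf2bpl rose in host microglia (0.57, SE 0.20), and no gene of this list passed between the populations or in the difference of responses. The backgrounds were 13.6% and 13.7% without LPS, 9.52% and 7.62% after it, and 2.97% and 2.9% for the responses. Il10ra, the ligand-binding chain of the interleukin 10 receptor, fell with LPS by 0.63 (SE 0.20) in engrafted cells and by 0.76 (SE 0.14) in host microglia.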
